A study of Rattus norvegicus with 36 samples.

Results

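Exon usage after knockdown of the RNA-binding protein QKI was compared between 3 exon arrays of CG-4 cells transfected with QKI siRNA and 6 control arrays, 3 of cells transfected with a non-silencing siRNA and 3 of untreated cells. These are 9 of the 18 exon-level arrays of the series, chosen by their titles. CG-4 is a rat cell line of oligodendrocyte progenitors, and all groups were grown in medium conditioned by B104 cells. The other 9 arrays, 3 per group, came from a stable QKI shRNA line, a stable non-silencing shRNA line and cells transfected with hnRNP A1 siRNA. The labels call the arrays of a group biological replicates without saying what was repeated, so p-values measure the spread between these arrays. They name no separate clones for the stable lines, and give no siRNA sequence, dose or time. Each of the 204586 probe sets of the exon-level table is a small group of probes within a stretch of transcript, usually an exon or part of one. A probe set was read relative to its gene as its log2 value minus the median log2 value of the gene's other tested probe sets on the same array, called its exon shift here. Of these, 112728 probe sets of 9176 genes could be tested. Among them 22 probe sets in 20 genes differed from both control groups, and these are described below.

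QKI binds a short sequence element in introns and in untranslated regions, and acts on splicing, transport, stability and translation of its target RNAs. In oligodendrocytes it is known for its part in myelination, and for regulating exons of myelin genes such as Mag and of cytoskeletal genes. On an exon array an exon that is skipped more often, an alternative start or an alternative end each lowers some probe sets of a gene relative to the rest. The array does not tell these apart. No probe or exon sequence and no coordinate was used here, so probe sets are named by the array's own numbers.

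At the gene level the knockdown was visible in Qki itself. Qki had log2 values of 9.99, 10.02 and 9.67 on the QKI siRNA arrays, against 11.47, 11.39 and 11.14 with non-silencing siRNA and 11.85, 11.63 and 10.84 in untreated cells. All 3 QKI siRNA arrays were below all 6 controls, with a change of -1.50 ± 0.19 against both (SE, adjusted p = 0.0205, limma). Against non-silencing siRNA alone the change was -1.44 (adjusted p = 0.179), and against untreated cells alone it was -1.55 (adjusted p = 0.00862). Among the 11 oligodendrocyte lineage markers listed, 8 were measured and 7 lay above the array median on all 9 arrays. Cspg4, which encodes the progenitor surface proteoglycan NG2, was low throughout, with means of 3.82, 3.68 and 3.65 after QKI siRNA, after non-silencing siRNA and in untreated cells. The mean of the 8 markers ran from 7.97 to 8.44 on the QKI siRNA arrays, against 8.86 to 8.99 on the non-silencing siRNA arrays and 8.68 to 9.21 on the untreated arrays. Of the 8, only Ptprz1 passed the test (means of 10.52, against 11.12 with non-silencing siRNA and 11.56 in untreated cells, adjusted p = 0.0372). Mbp and Gpr17 had larger falls but did not pass. Means of Mbp were 6.36, against 9.2 with non-silencing siRNA and 8.85 in untreated cells (adjusted p = 0.0965, limma). Those of Gpr17 were 7.16, against 8.68 and 8.85 (adjusted p = 0.131, limma). Olig1 was not lower, with 9.65 against 9.04 and 9.6. In such bulk RNA, fewer cells of a type and less RNA per cell cannot be told apart. Of 20 markers of astrocytes, neurons, microglia, Schwann cells and fibroblasts, 15 were measured, 4 lay above the array median on all 9 arrays and 0 were called (Gfap and Tubb3 adjusted p = 0.619 and 0.996). Their mean ran from 4.05 to 4.11 on the QKI siRNA arrays, against 3.84 to 4.08 with non-silencing siRNA and 3.87 to 4.16 in untreated cells. The part of these marker differences in the exon shifts was not tested.

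Against the 2 control groups pooled, 22 of the tested probe sets had an adjusted p under 0.05, which is 0.0195% of all tested. Of these, 8 were higher relative to their gene (0.0071%) and 14 were lower (0.0124%). At an unadjusted p under 0.05 there were 11681. In limma's fit all 22 also passed the unadjusted threshold, in the same direction, against the non-silencing siRNA arrays (highest p 0.000488) and against the untreated arrays (highest p 0.000118). The counts after adjustment against each control group alone were lower. Against non-silencing siRNA, limma called 0 probe sets after adjustment and 9135 at an unadjusted p under 0.05, and the 22 had adjusted p-values of 0.105 to 0.284. Against untreated cells it called 10 (0.00887%), 8 of them among the 22, whose adjusted p-values ran from 0.0153 to 0.109. On all 22 the QKI siRNA arrays did not overlap the 6 controls in shift, which held for 4.43% of all tested probe sets. The same arrays chose the 22, so this is a description and no added support. Between non-silencing siRNA and untreated cells limma called 0 probe sets after adjustment, and 5961 (5.29%) had an unadjusted p under 0.05. Among the 22, 3 differed between the controls at an unadjusted p under 0.05 (Tmem79, 1 probe set of Macf1 and Atp8a1).

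The exon shifts of QKI siRNA arrays 1, 2 and 3 correlated on average at 0.876, 0.886 and 0.869 with the other 2 of their group. With the 6 controls they correlated at 0.899, 0.875 and 0.858. Array 3 was thus the least like its group, and only array 1 was closer to the controls than to its group. The closest array of QKI siRNA array 1 was untreated array 2, and that of untreated array 3 was QKI siRNA array 1. The count depended on single arrays. Without QKI siRNA array 1, 2 or 3, the number called against both control groups was 245, 2 or 0. Without non-silencing siRNA array 1 or 3 it was 6 or 0, and without untreated array 1, 2 or 3 it was 0, 0 or 46. A fit on the 9 arrays alone, which leaves fewer degrees of freedom for the spread, called 0 (smallest adjusted p = 0.0747, 11477 at an unadjusted p under 0.05). In every one of these fits all 22 kept their direction. The last probe set inside the threshold was in Nectin3 (-2.0, adjusted p = 0.0450), and the first outside it was in Atp2a2 (-1.50, adjusted p = 0.0513).

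**Figure D1:**
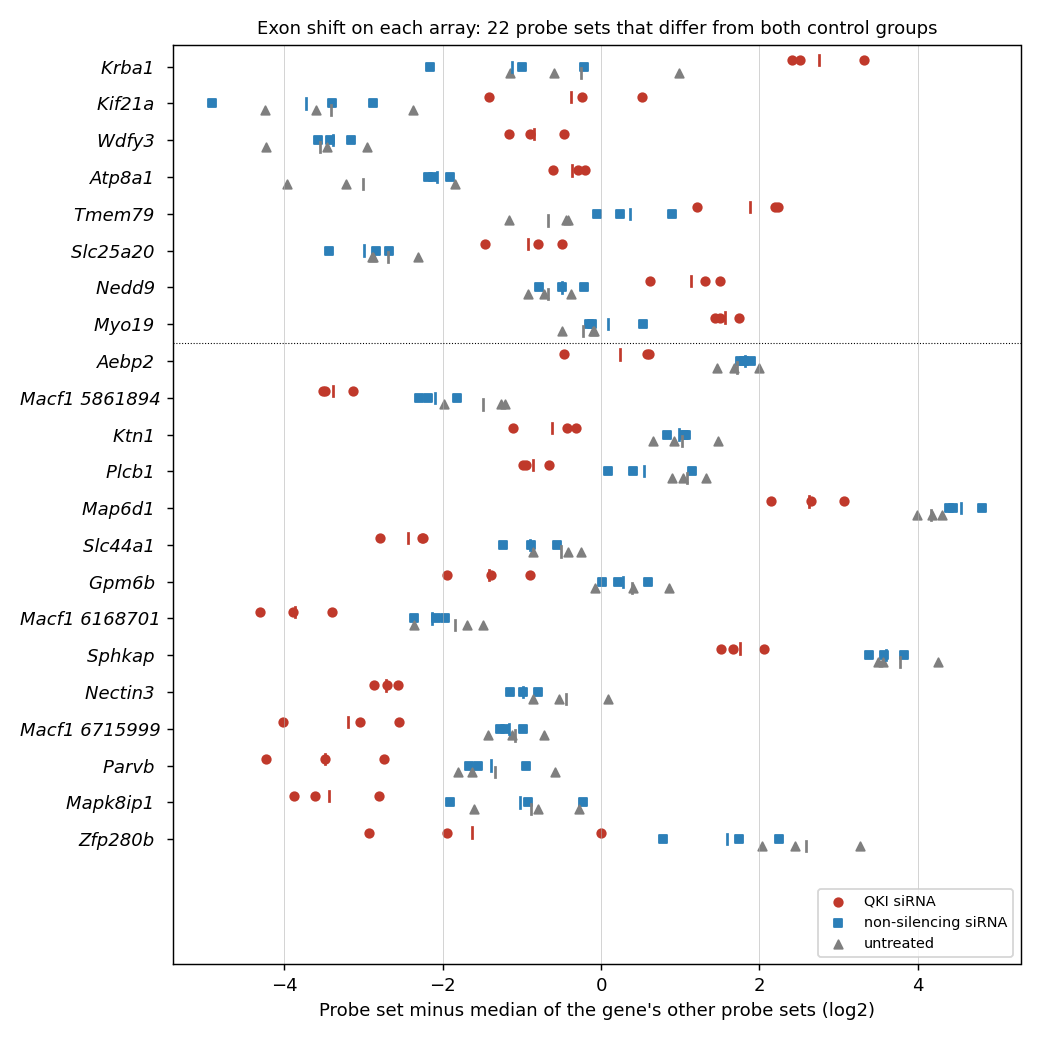
Exon shift (log2) of the 22 probe sets on the 3 QKI siRNA, 3 non-silencing siRNA and 3 untreated arrays, 1 row per probe set, with points for arrays and short vertical lines for group means. The 8 probe sets above the dotted line have all QKI siRNA points right of the 6 control points, and the 14 below it have them all to the left.

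Of the 22 probe sets, 5 in 3 genes belong to the list of cytoskeletal genes and linkers, of which 46 genes were tested with 1323 probe sets (0.378%, against 0.0195% of all tested). The list was drawn up with earlier results of these data known, and 3 of the 5 lie in 1 gene of 107 tested probe sets. Macf1, a giant linker between microtubules and actin, held 3 of them and all were lower. Probe set 6715999 of Macf1 had log2 values of 5.0, 5.68 and 5.57 after QKI siRNA, against 8.72, 9.19 and 9.38 with non-silencing siRNA and 9.05, 9.59 and 7.65 in untreated cells. The rest of the gene was lower as well, but less so, with medians of 8.04, 8.22 and 9.58 after QKI siRNA, against 9.94, 10.46 and 10.37 with non-silencing siRNA and 10.17, 10.31 and 9.07 in untreated cells. The probe set separates the groups completely, whereas for the rest of the gene QKI siRNA array 3 lay above untreated array 3. Its exon shift fell by 2.08 (SE 0.28, adjusted p = 0.0194). Probe sets 6168701 and 5861894 fell by 1.88 (SE 0.30) and 1.59 (SE 0.25), each with an adjusted p of 0.0418. Among the 107 tested probe sets of Macf1 these 3 had the lowest shifts, and the next was at -1.25. In all, 9 probe sets of Macf1 were lower and 2 higher than both control groups at unadjusted p under 0.05. With diffSplice, which takes 1 spread for all probe sets of a gene, the 3 were not called (adjusted p = 0.0849, 0.173 and 0.374 for 6715999, 6168701 and 5861894).

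Ktn1 encodes kinectin, a kinesin receptor on the endoplasmic reticulum. Its probe set 6735411 had 6.10, 4.73 and 6.78 after QKI siRNA, against 8.18, 8.61 and 8.87 with non-silencing siRNA and 9.36, 8.48 and 8.41 in untreated cells. Every QKI siRNA array was below every control by more than 1 log2 unit. The shift fell by 1.62 (SE 0.23, adjusted p = 0.0268), with the other 33 probe sets of Ktn1 between -0.63 and 1.28. Kif21a encodes a kinesin motor, and its probe set 5847184 moved the other way. It had 5.50, 6.14 and 5.79 after QKI siRNA, against 3.76, 5.28 and 3.28 with non-silencing siRNA and 3.75, 3.17 and 5.60 in untreated cells. The level itself therefore overlapped between QKI siRNA array 1 and untreated array 3, and the groups separated only relative to the gene, whose median was 5.74, 5.62 and 7.21 after QKI siRNA, against 7.16, 8.16 and 8.20 with non-silencing siRNA and 7.34, 7.42 and 7.97 in untreated cells. The shift was higher by 3.19 ± 0.51 (SE, adjusted p = 0.0418), of which 1.67 was the probe set and -1.52 the rest of the gene.

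Outside that list, Myo19 and Map6d1 also have roles on the cytoskeleton. In Myo19, a myosin of mitochondria, probe set 6474966 had 6.16, 5.98 and 6.48 after QKI siRNA, against 5.03, 4.46 and 5.08 with non-silencing siRNA and 4.19, 4.37 and 5.11 in untreated cells. The groups did not overlap, and the shift was higher by 1.64 ± 0.24 (SE, adjusted p = 0.0268) while the rest of the gene moved by -0.14. The rest of Myo19 lay only slightly above 4.49, the median of the whole table. Its group means were 4.64 after QKI siRNA, 4.77 with non-silencing siRNA and 4.79 in untreated cells. Its small change therefore says little about the level of the transcript. Map6d1 encodes a relative of the microtubule-stabilising protein MAP6. Its probe set 6140257 had 7.43, 6.88 and 7.21 after QKI siRNA, against 9.30, 9.01 and 8.99 with non-silencing siRNA and 9.0, 8.45 and 8.70 in untreated cells. All QKI siRNA arrays were lower, and the shift fell by 1.73 (SE 0.27, adjusted p = 0.0418). Map6d1 had only 4 tested probe sets, and the median of the other 3 was near the array median, so its reference is a dim one.

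**Figure D2:**
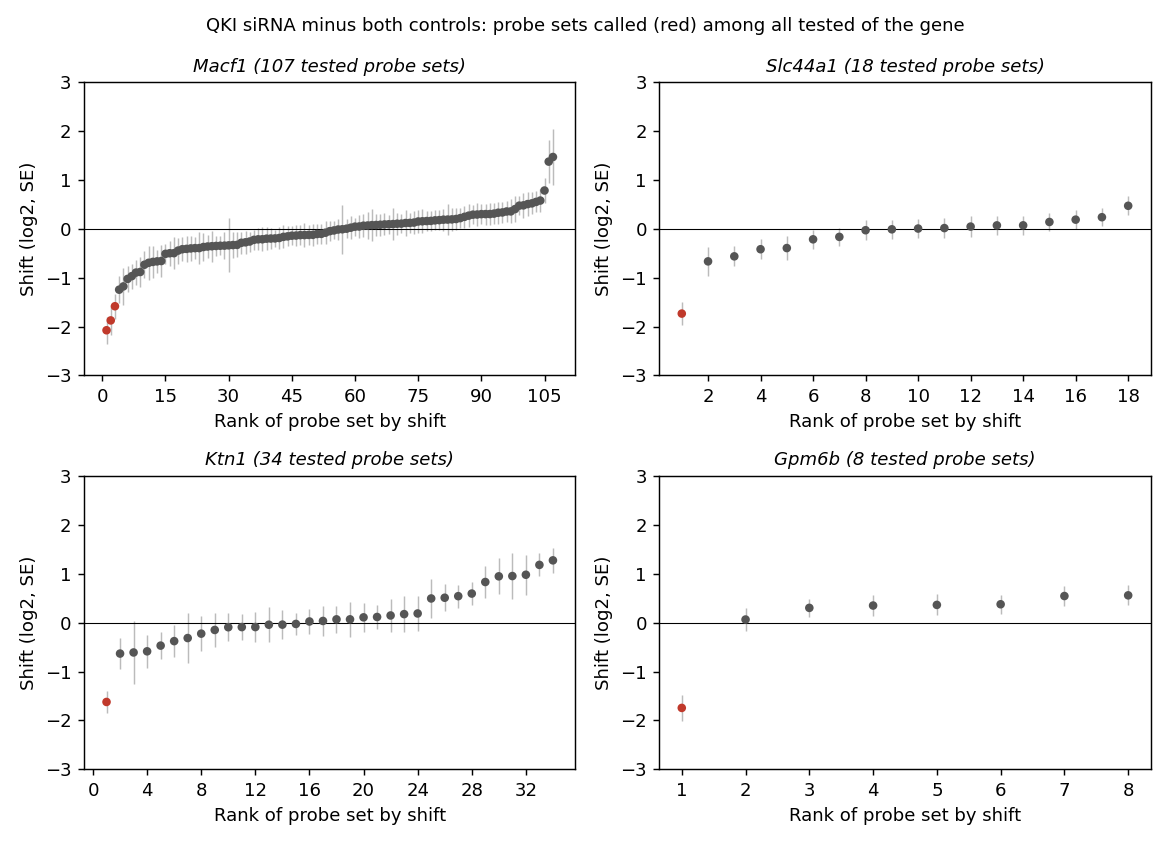
Exon shift (log2, QKI siRNA minus the mean of both control groups, bars SE) of every tested probe set of Macf1, Slc44a1, Ktn1 and Gpm6b, ranked by shift within the gene, with called probe sets in red. The 3 called probe sets of Macf1 are the lowest of 107, and the called ones of Slc44a1, Ktn1 and Gpm6b stand apart as the lowest of 18, 34 and 8.

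Parvb, Nectin3 and Nedd9 act at cell contacts, and none of them is in the adhesion list. In Parvb, an actin-binding partner of integrin-linked kinase, probe set 6497977 had 4.20, 3.73 and 3.40 after QKI siRNA, against 5.63, 6.13 and 5.33 with non-silencing siRNA and 6.74, 5.71 and 6.31 in untreated cells. The groups did not overlap, and the QKI siRNA values lay below the array medians of 4.41 to 4.55. The shift fell by 2.12 (SE 0.35, adjusted p = 0.0418). The probe set in Nectin3, a cell adhesion molecule of adherens junctions, had 5.15, 4.29 and 3.81, against 6.88, 6.56 and 6.41 with non-silencing siRNA and 8.18, 7.36 and 6.83 in untreated cells. It was lower on all 3 QKI siRNA arrays, and its shift fell by 2.00 (SE 0.33, adjusted p = 0.0450). In Nedd9, a scaffold of focal adhesions, probe set 6193245 had 6.19, 6.43 and 4.77 after QKI siRNA, against 3.82, 3.98 and 3.78 with non-silencing siRNA and 5.17, 4.82 and 4.63 in untreated cells. QKI siRNA array 3 lay within the untreated range in level, and the groups separated in shift, which was higher by 1.73 ± 0.28 (SE, adjusted p = 0.0418).

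Gpm6b, Slc44a1, Slc25a20, Atp8a1 and Tmem79 encode membrane proteins. Gpm6b is a glycoprotein of neurons and glia. Its probe set 5771865 had 10.29, 9.75 and 9.49 after QKI siRNA, against 11.76, 11.94 and 11.57 with non-silencing siRNA and 12.07, 12.28 and 11.50 in untreated cells. The median of the gene's other probe sets was 11.18, 11.14 and 11.44 after QKI siRNA, against 11.16, 11.73 and 11.56 with non-silencing siRNA and 11.22, 11.87 and 11.58 in untreated cells. The probe set was thus lower on every QKI siRNA array while the rest of the gene overlapped with both controls, and the shift fell by 1.74 (SE 0.27, adjusted p = 0.0383). Slc44a1 encodes a choline transporter-like protein. Its probe set 6508705 had 7.60, 7.30 and 7.89, against 10.04, 9.54 and 9.66 with non-silencing siRNA and 10.69, 10.74 and 9.67 in untreated cells. The gap to the nearest control was more than 1 log2 unit, and the shift fell by 1.74 (SE 0.24, adjusted p = 0.0194), with the other 17 probe sets between -0.67 and 0.47.

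Higher relative to their gene were probe sets in Slc25a20, Atp8a1 and Tmem79. Slc25a20 encodes the mitochondrial carrier of carnitine and acylcarnitine, and its probe set 6596032 had 6.49, 5.76 and 6.62 after QKI siRNA, against 3.93, 4.64 and 5.08 with non-silencing siRNA and 4.88, 4.48 and 4.30 in untreated cells. No control array reached the lowest QKI siRNA array, and the shift was higher by 1.92 ± 0.26 (SE, adjusted p = 0.0194). The probe set in Atp8a1, a phospholipid flippase, had 6.09, 6.69 and 6.15, against 5.36, 5.05 and 5.29 with non-silencing siRNA and 5.14, 4.21 and 5.35 in untreated cells. The groups did not overlap. Its shift of 2.17 ± 0.35 (SE, adjusted p = 0.0418) joined a change of 1.24 in the probe set and one of -0.93 in the rest of the gene. The probe set in Tmem79, known from the epidermis, had 5.78, 6.84 and 6.88, against 5.17, 5.34 and 4.87 with non-silencing siRNA and 3.89, 4.76 and 4.93 in untreated cells. It was higher on all QKI siRNA arrays, by unequal amounts over the 2 controls: the shift was 1.52 against non-silencing siRNA and 2.56 against untreated cells, and 2.04 ± 0.27 against both (SE, adjusted p = 0.0194). The rest of Tmem79 was near the table median of 4.49, which limits what its level shows. Its group means were 4.62 after QKI siRNA, 4.77 with non-silencing siRNA and 5.20 in untreated cells.

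Mapk8ip1, Plcb1 and Sphkap act in signalling and each had 1 lower probe set. In Mapk8ip1, a scaffold of the JNK pathway, probe set 6180894 had 4.79, 5.97 and 4.58 after QKI siRNA, against 8.16, 5.83 and 7.19 with non-silencing siRNA and 8.28, 7.31 and 7.02 in untreated cells. QKI siRNA array 2 and non-silencing siRNA array 2 overlapped in level but not in shift, which fell by 2.48 (SE 0.38, adjusted p = 0.0383). Plcb1 encodes a phospholipase C, and its probe set 5870407 had 4.80, 3.96 and 3.46, against 5.03, 4.87 and 6.02 with non-silencing siRNA and 6.77, 6.10 and 7.58 in untreated cells. The gap to non-silencing siRNA was small in level, and the shift fell by 1.68 (SE 0.26, adjusted p = 0.0383). In Sphkap, an anchor of protein kinase A, the probe set had 5.54, 6.11 and 6.15, against 7.39, 7.47 and 7.71 with non-silencing siRNA and 7.79, 7.15 and 7.24 in untreated cells, and the shift fell by 1.93 (SE 0.31, adjusted p = 0.0418). The groups did not overlap, but the median of the gene's other probe sets was under 4.49, the median of the whole table, on all 9 arrays.

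The remaining 4 probe sets lie in Wdfy3, Aebp2, Zfp280b and Krba1. In Wdfy3, an adaptor of selective autophagy, probe set 6275084 had 6.53, 6.14 and 6.95 after QKI siRNA, against 4.51, 4.85 and 5.07 with non-silencing siRNA and 5.08, 4.46 and 4.85 in untreated cells. The groups did not overlap, and the shift was the highest of 71 tested probe sets of the gene, at 2.62 ± 0.37 (SE, adjusted p = 0.0268), and the next was at 0.54. The probe set in Aebp2, a cofactor of Polycomb repressive complex 2, had 7.98, 6.55 and 7.48, against 8.97, 9.37 and 9.52 with non-silencing siRNA and 9.92, 9.45 and 8.69 in untreated cells, and its shift fell by 1.53 (SE 0.25, adjusted p = 0.0418). It was lower on all QKI siRNA arrays. Probe set 6350423 of Zfp280b had 7.30, 4.15 and 4.17 after QKI siRNA, against 8.42, 7.21 and 7.84 with non-silencing siRNA and 8.88, 7.99 and 8.11 in untreated cells. QKI siRNA array 1 overlapped in level with non-silencing siRNA array 2 but not in shift, and the fall in shift of 3.71 (SE 0.56, adjusted p = 0.0375) was the biggest of the 22 and also had the highest standard error. Probe set 6530711 of Krba1 had 8.09, 7.10 and 7.41, against 3.30, 4.71 and 4.16 with non-silencing siRNA and 3.79, 4.04 and 5.47 in untreated cells. All QKI siRNA arrays stood far above the controls, with a shift of 3.43 ± 0.53 (SE, adjusted p = 0.0400). The rest of Krba1 was near the table median of 4.49, which limits what its level shows. Its group means were 4.79 after QKI siRNA, 5.18 with non-silencing siRNA and 4.69 in untreated cells.

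The 22 shifts were between 1.53 and 3.71 in size, with a median of 1.93. By construction a shift joins the change of a probe set and that of its gene, so both are given. In all 22 the probe set itself moved more than the median of the other probe sets. For a lower probe set in a gene whose rest was also lower, the definition of the shift makes this so. The same arrays chose the 22, so it is a description and no added support. The median size of the change was 2.00 for the probe sets and 0.43 for the rest of their genes. In 5 probe sets (3 of Macf1, Ktn1 and Kif21a) the rest of the gene was lower by 1 or more. At the gene level 0 of the 20 genes passed the test across all genes (lowest adjusted p = 0.0518, Nectin3), where limma called 28 genes and 2567 had an unadjusted p under 0.05. In 16 of the 22 the lower side, either QKI siRNA or the mean of both control groups, averaged at or above 4.49. In 6, of which 3 were higher (Krba1, Kif21a and Nedd9) and 3 lower (Plcb1, Parvb and Nectin3), it averaged less. The lower probe sets had a median level of 7.16 and the higher ones of 5.25, against 6.02 over all tested probe sets. The genes had a median of 15.5 tested probe sets each, against 15 over all tested probe sets.

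**Figure D3:**
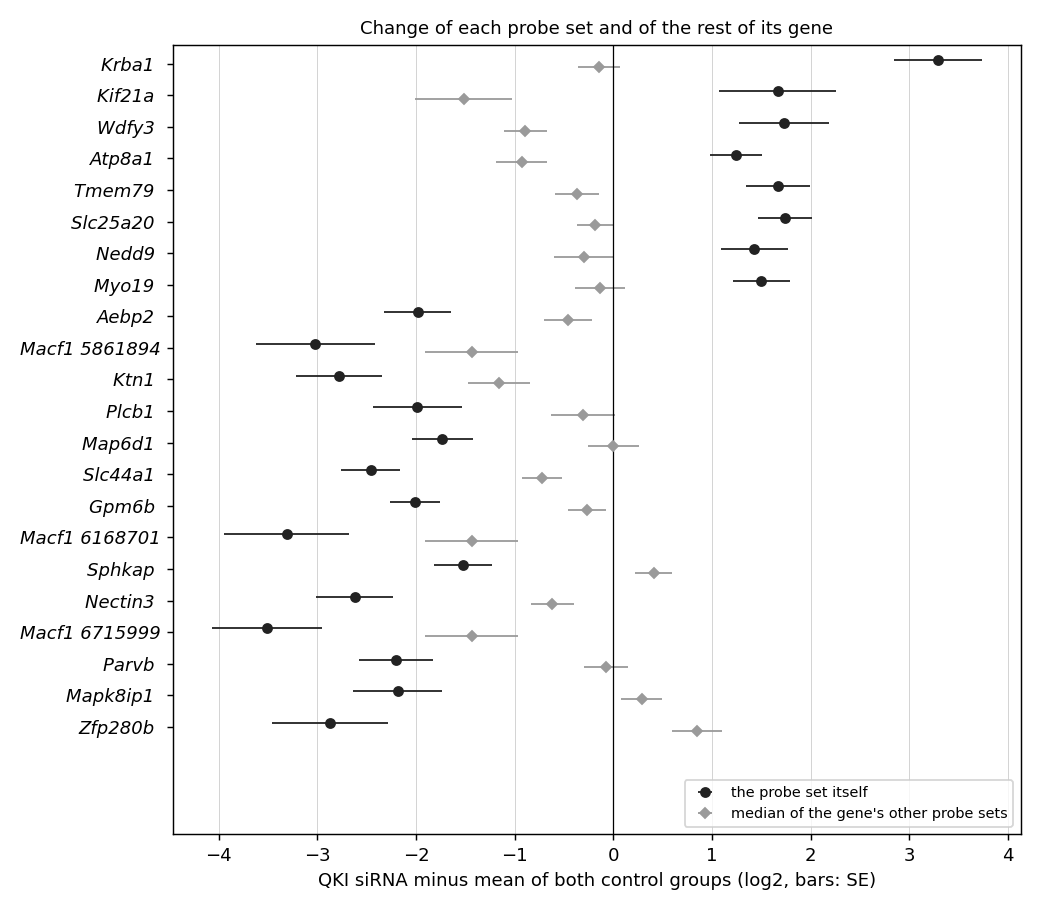
Change after QKI siRNA (log2, QKI siRNA minus the mean of both control groups, bars SE) of each of the 22 probe sets and of the median of its gene's other probe sets. In all 22 rows the probe set lies farther from 0 than the rest of its gene, which is lower by 1 or more for Macf1, Ktn1 and Kif21a. The same arrays chose the 22 by their shift.

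Shares by level and by the change of the gene are given next. Probe sets higher than both control groups at unadjusted p under 0.05 made up 1.6% of all tested, and lower ones 1.52%. Among 231 probe sets under the table median whose gene reference was lower by 1 or more, 19.5% were higher and 0% were lower. Among 2347 brighter ones in such genes, 7.84% were higher and 3.37% were lower. The opposite held where the gene reference was higher by 1 or more: of 58 dim probe sets 0% were higher and 32.8% lower, and of 221 bright ones 0.452% were higher and 8.14% lower. In genes whose reference moved by less than 1, the shares were 1.33% higher and 1.57% lower for bright probe sets, and 1.71% and 1.15% for dim ones. The change of the reference enters the shift, so these shares are a description. In Kif21a the 5 probe sets that were higher at unadjusted p under 0.05 all averaged under 5.40, while most of its others were brighter.

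**Figure D4:**
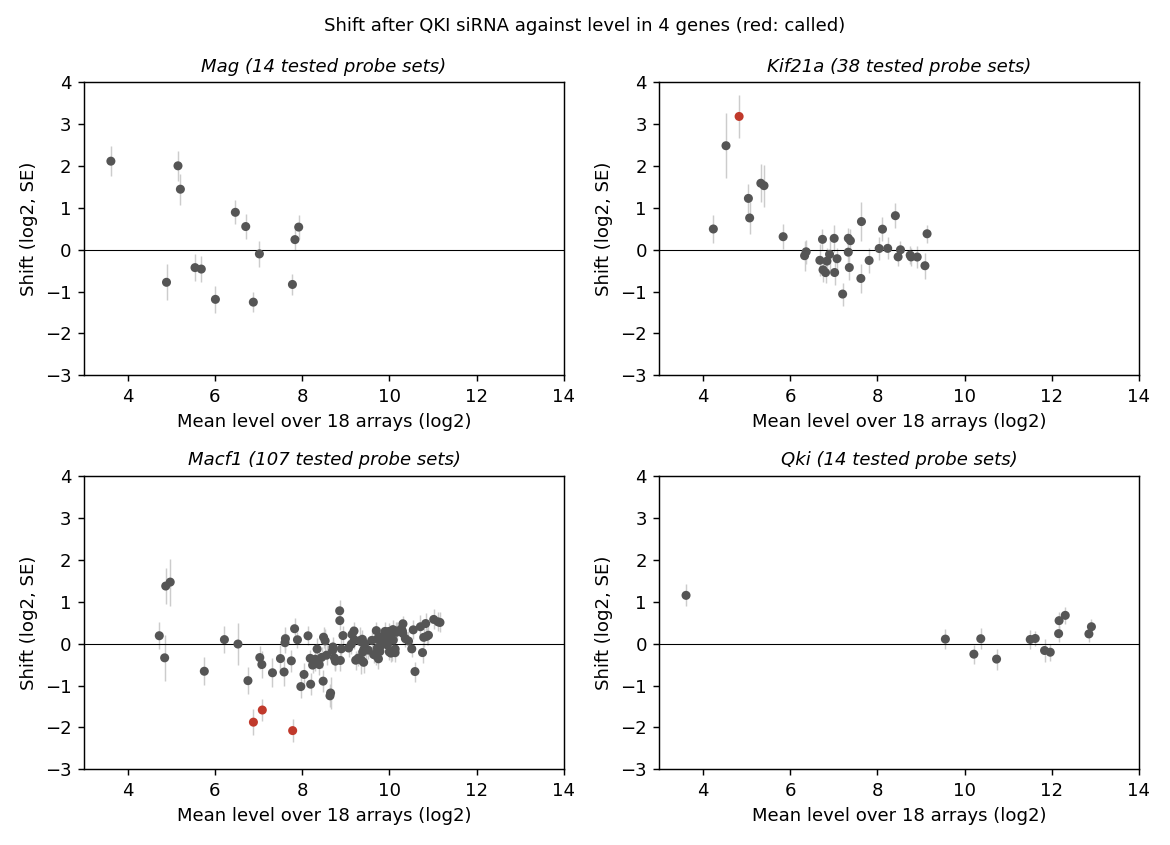
Exon shift (log2, QKI siRNA minus the mean of both control groups, bars SE) of all tested probe sets of Mag, Kif21a, Macf1 and Qki against their mean level over 18 arrays (log2), with called probe sets in red. In Kif21a and Mag the highest shifts belong to dim probe sets, as do those of Macf1 (levels of 4.97 and 4.87) and Qki (3.61). The 3 called probe sets of Macf1 have levels of 6.88 to 7.78 and negative shifts.

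None of the 22 lies in a gene on the list of reported QKI targets, of which 13 of 18 were tested with 171 probe sets, or on the list of myelin and axo-glial genes, of which 19 of 27 were tested with 241 probe sets. At the unadjusted threshold against both control groups, 10 probe sets of the QKI target list were higher and 13 lower, together 13.5%. In the myelin list 10 were higher and 15 lower, together 10.4%. Over all tested probe sets this share was 3.12%. Some target genes moved as a whole. Beside the probe set of smallest p, the rest of the gene changed by -2.04 in Mag, -1.45 in Mbp and -1.40 in Nfasc. It changed by -1.20 in Add3, -1.15 in Sirt2 and 1.26 in Egr2, and by less than 1 in the other tested target genes. Where the gene reference moved by 1 or more, the shares given above were larger, and its part in the list shares was not tested. The median size of the shift was 0.27 in the target list and 0.24 in the myelin list, against 0.25 over all tested probe sets. Several genes are on both lists. The cytoskeletal list had 48 higher and 34 lower among 1323 probe sets (6.2%), and the adhesion list 20 higher and 24 lower among 1031 (4.27%). The list of splicing factors had 6 higher and 6 lower among 460 (2.61%), and that of chromatin, transcription and mRNA decay 5 higher and 3 lower among 453 (1.77%). Their median sizes of shift were 0.28, 0.25, 0.21 and 0.22.

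Mag, a myelin adhesion protein with a QKI-regulated exon, missed the threshold narrowly. Its probe set 6259153 had 3.78, 3.37 and 4.26 after QKI siRNA, against 3.87, 3.16 and 3.62 with non-silencing siRNA and 3.90, 4.21 and 3.60 in untreated cells. The median of the gene's other probe sets was 4.77, 5.39 and 6.83 after QKI siRNA, against 7.09, 7.47 and 7.63 with non-silencing siRNA and 7.93, 7.71 and 8.38 in untreated cells. The probe set was dim and overlapped in all groups, while the rest of the gene did not overlap. Its shift of 2.12 ± 0.36 (SE, adjusted p = 0.0513) joined a change of 0.08 in the probe set and one of -2.04 in the rest of the gene. It passed the threshold with the gene-level table as reference (1.90, adjusted p = 0.0303) and with the mean of the other probe sets (2.01, adjusted p = 0.0418). In Mbp, which encodes myelin basic protein, probe set 6699172 had 5.71, 5.50 and 7.74, against 9.47, 10.28 and 9.75 with non-silencing siRNA and 8.87, 9.46 and 9.33 in untreated cells. It was lower on all QKI siRNA arrays, and its shift was -1.75 ± 0.33 (SE, adjusted p = 0.0725). That shift joined a change of -3.21 in the probe set and one of -1.45 in the rest of the gene. In Nfasc, a cell adhesion protein of the axo-glial junction, probe set 5879895 had 4.16, 5.87 and 5.82, against 8.11, 8.18 and 8.31 with non-silencing siRNA and 9.36, 9.23 and 8.48 in untreated cells, with a shift of -1.93 ± 0.42 (SE, adjusted p = 0.126). It too was lower on all QKI siRNA arrays, with a change of -3.33 in the probe set and one of -1.40 in the rest of the gene.

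In Qki itself 14 probe sets were tested and 0 were called. The one with the smallest p, 5937441, had a mean of 3.61 and a shift of 1.15 ± 0.26 (SE, adjusted p = 0.145), in a gene that was lower as a whole. No probe set of Hnrnpa1 entered the exon test, and its gene-level change after QKI siRNA was -0.27 ± 0.16 (SE, adjusted p = 0.479). Among the other listed genes, the smallest p-values belonged to probe sets of Bcan (shift 1.87, adjusted p = 0.0513), Col11a1 (2.42, adjusted p = 0.0615) and Ntrk2 (2.15, adjusted p = 0.0847). Bcan encodes a matrix proteoglycan of the brain, Col11a1 a collagen chain and Ntrk2 the receptor of the growth factor BDNF.

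The contrast that chose the 22 probe sets does not contain the arrays of the stable lines, although all 18 arrays enter the filter and the estimate of the spread. Across all tested probe sets, limma called 474 between the QKI shRNA and the non-silencing shRNA line, which is 0.42%, with 246 lower (0.218%) and 228 higher (0.202%). Of the 22, 2 were called, and both were lower as after the siRNA. Slc44a1 probe set 6508705 had 8.67, 8.23 and 9.43 in the QKI shRNA line, against 10.55, 10.89 and 10.91 in the non-silencing shRNA line. The lines did not overlap, and the shift fell by 1.61 (SE 0.27, adjusted p = 0.0103), close to the 1.74 by which it fell after QKI siRNA. Map6d1 probe set 6140257 had 5.66, 6.05 and 6.20 in the QKI shRNA line, against 7.40, 8.23 and 8.50 in the non-silencing shRNA line. It was lower on all 3 arrays, and its shift fell by 1.77 (SE 0.32, adjusted p = 0.0144). Map6d1 again rests on a dim reference, and it drops out of the test where dim references are left out.

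The other 20 were not called in the shRNA line. Of all 22, 9 had the direction seen after siRNA (6 of 14 lower and 3 of 8 higher). An unadjusted p under 0.05 was reached by 9, against 11.9% of all tested probe sets, and 4 of those 9 had the same direction. In 21 of 22 the shift was smaller in size than after QKI siRNA against non-silencing siRNA. The 22 were chosen for extreme shifts after QKI siRNA, so this count does not show a weaker effect in the shRNA line. The 3 probe sets of Macf1 had shifts of -0.72, -0.83 and -0.49 for 6715999, 6168701 and 5861894, with adjusted p-values of 0.375, 0.345 and 0.543. Qki itself had gene-level values of 10.65, 10.35 and 11.14 in the QKI shRNA line, against 10.90, 11.01 and 10.99 in the non-silencing shRNA line. The lines overlapped, with a change of -0.25 ± 0.22 (SE, adjusted p = 0.656).

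**Figure D5:**
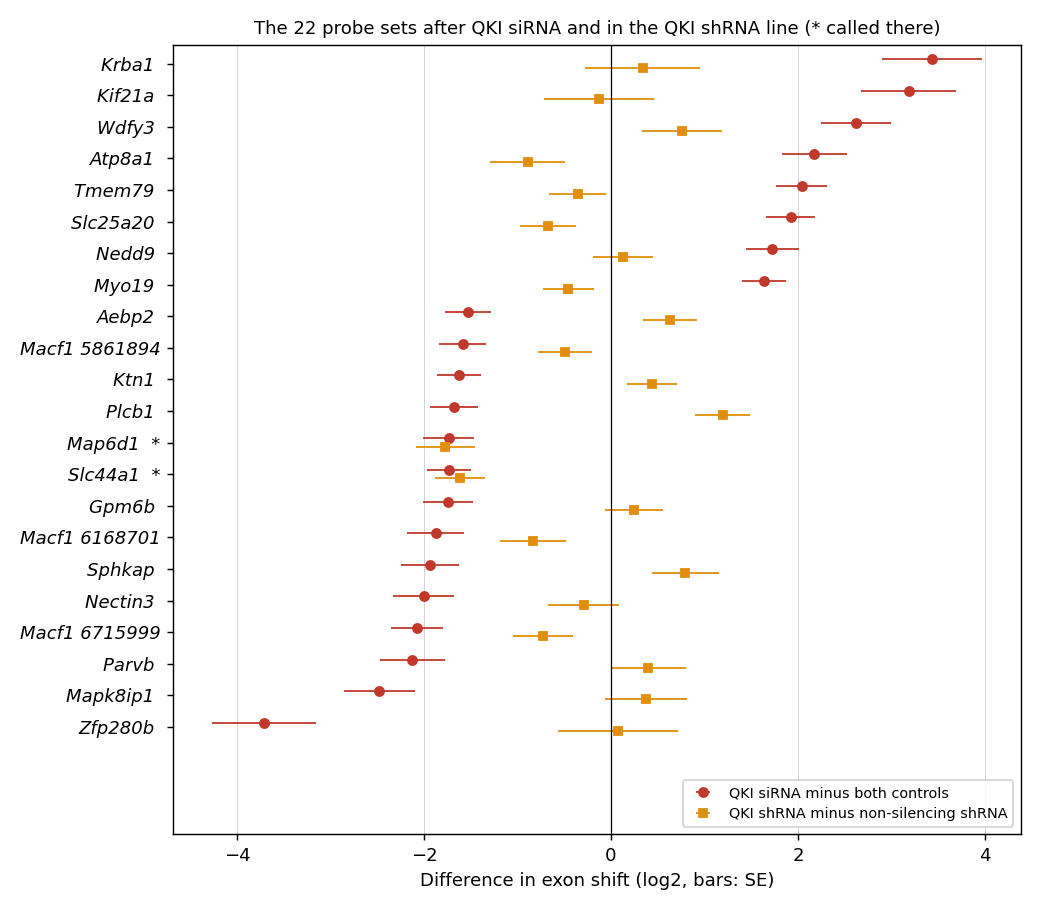
Difference in exon shift (log2, bars SE) of the 22 probe sets after QKI siRNA against both control groups and in the QKI shRNA line against the non-silencing shRNA line, with an asterisk where the shRNA difference was called. Map6d1 and Slc44a1 have nearly the same value in both, and 13 of the 22 have opposite signs.

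The difference between the siRNA and the shRNA shifts was tested directly, each against its own non-silencing control. It was called for 33 of all tested probe sets (0.0293%) and for 2 of the 22, whose siRNA side had been used to choose them. In Slc25a20 the siRNA shift was the higher one by 2.74 ± 0.42 (SE, adjusted p = 0.0242), and the shRNA line itself had a shift of -0.67 (adjusted p = 0.383). In Plcb1 the difference was -2.60 ± 0.42 (SE, adjusted p = 0.0284). Plcb1 probe set 5870407 had 8.56, 8.96 and 7.21 in the QKI shRNA line, against 6.45, 5.27 and 4.66 in the non-silencing shRNA line, and a shift of 1.19 ± 0.30 (SE, adjusted p = 0.0862). The lines did not overlap in level, but the whole gene was higher in the QKI shRNA line, by 1.53 ± 0.36 at the gene level (SE, adjusted p = 0.0109). Slc25a20 also changed as a gene there, by -0.97 ± 0.18 (SE, adjusted p = 0.00235). Leaving out single arrays moved this count of 2: it was 0 without QKI siRNA array 3 or non-silencing siRNA array 1, and 1 without QKI siRNA array 2 or non-silencing siRNA array 2 or 3.

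Cells transfected with hnRNP A1 siRNA show how the 22 behaved under another transfected siRNA. Between QKI siRNA and hnRNP A1 siRNA, limma called 0 of all tested probe sets after adjustment and 5391 at an unadjusted p under 0.05, which is 4.78%. Of the 22, 17 had an unadjusted p under 0.05 (smallest adjusted p = 0.342), but the QKI siRNA arrays are those that chose them. Gpm6b probe set 5771865 had 10.29, 9.75 and 9.49 after QKI siRNA, against 11.49, 11.66 and 11.75 after hnRNP A1 siRNA, without overlap. Krba1 probe set 6530711 had 8.09, 7.10 and 7.41 after QKI siRNA, against 7.99, 6.77 and 7.52 after hnRNP A1 siRNA, and these overlapped. Its shift differed between QKI siRNA and hnRNP A1 siRNA by 0.09 (95% confidence interval -1.20 to 1.38). For Slc25a20 this difference was 0.16 (-0.47 to 0.79) and for Mapk8ip1 0.06 (-0.86 to 0.97). For Nectin3 it was -0.36 (-1.16 to 0.44) and for Myo19 0.52 (-0.06 to 1.09). These intervals do not show that both siRNAs act alike, but the values of these probe sets were not separated between them. Macf1 probe set 6715999 and Wdfy3 differed by -2.0 and 2.17 in the same comparison. Between hnRNP A1 siRNA and non-silencing siRNA, limma called 0 probe sets after adjustment and 7160 at an unadjusted p under 0.05. Of the 22, only Macf1 probe set 5861894 (0.58) had a sign there opposite to that after QKI siRNA. Shifts there included 3.78 in Krba1, -2.47 in Mapk8ip1 and 1.91 in Slc25a20. For QKI siRNA against the same non-silencing arrays, these 3 probe sets had 3.87, -2.41 and 2.07. Other shifts after hnRNP A1 siRNA were 2.01 in Kif21a, -1.37 in Nectin3, 0.96 in Myo19 and -0.04 in Macf1 probe set 6715999. Both siRNAs were set against the same non-silencing arrays, so equal signs are not independent.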

How the data were processed

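Per the submitters' processing notes the authors used RMA and Partek (the sources used here give no version, genome build or annotation for them), and the deposited values are log2 intensities per probe set on 18 exon arrays, so no read depth applies and the number of arrays limits the precision. Values ran from 2.22 to 14.9. Platform annotation gave 149521 of 204586 probe sets 1 gene symbol, 962 several and 54103 none, and 23034 symbols were updated through RefSeq. A probe set was tested if it had 1 symbol, averaged 3.40 or more (the 25th percentile of all) and shared its gene with enough others to make 4. Gene-level values come from the deposited gene-level table of the same arrays.

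Exon shifts were fitted with limma 3.58.1 (R 4.3.3, with data.table, version 1.17.8; lmFit and eBayes, 1 mean per group over 18 arrays, 12 residual and 6.37 prior degrees of freedom), two-sided, with Benjamini-Hochberg adjustment over 112728 probe sets; ± is limma's SE with 3 arrays per group. A probe set was taken where the pooled adjusted p was under 0.05 and the unadjusted p under 0.05 against each control group in the same direction. Named are Qki, Hnrnpa1, all 22 such probe sets and, for listed genes, the probe set of smallest pooled p. The steps were tested on simulated data. The members and lists were chosen with earlier results of these data known. Alternatives covered the gene reference, filters, normalization, diffSplice, arrays left out and a replicate block.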

Additional observations from a re-analysis of the deposited data

Results flagged for a closer look

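In 2 of the 22 probe sets the effect of QKI siRNA and that of QKI shRNA, each against its own non-silencing control, differed after adjustment across all tested probe sets. In Slc25a20 probe set 6596032 the difference in shift was 2.74 ± 0.42 (SE, adjusted p = 0.0242, limma), and in Plcb1 probe set 5870407 it was -2.60 ± 0.42 (SE, adjusted p = 0.0284). In both the sign of the shift after siRNA was the opposite of that in the shRNA line, where the shift itself was not called.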

How the results depend on the processing

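All 22 probe sets kept their direction under every alternative in which they were tested. The count called against both control groups was 22 with the gene-level table as reference (12 of them among the 22), 30 with the mean of the other probe sets (16), 28 without a filter (19), 25 with a filter at the table median (15 of 20 tested) and 23 after quantile normalization (19). It was 10 (10 of 17 tested) without genes that changed as a whole, 0 in a fit on the 9 compared arrays alone, and 524 against the pooled and 506 against both control groups with diffSplice, which assumes 1 spread per gene. With the replicate block it was 61, including all 22. The labels do not say what a number shares, deviations of same-numbered arrays correlated at -0.107 to 0.163, and 5 of the 9 compared arrays were closest to an array of their own number in the other groups, so the numbers were not taken as pairs. After seeing the data 2 alternatives were added: without untreated array 3 and QKI shRNA array 3 it was 79 pooled and 78 against both, and without dim gene references 26. Leaving out 1 array at a time gave 0 to 245. The number of the 22 called in the shRNA line was 1 with the median filter and without dim references, and 2 in the other fits that give it. The number with a called difference between siRNA and shRNA was 1 with the gene-level reference, with the median filter and without the 2 arrays, 4 without a filter, 8 with diffSplice, and 0 to 3 when 1 array was left out. Causes were not tested. Slc25a20 was called in 15 of 20 alternatives and Sphkap in 6 of 18.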
